A study of Mus musculus with 8 samples.

Results

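Expression of 9 genes of the LIF receptor and STAT3 pathway was examined in control and Dax1KO mouse embryonic stem cells (ESCs). The genes were taken by name: the receptor subunits Lifr, Il6st and Osmr, the kinase and transcription factor Jak1 and Stat3, and the response genes Socs3, Pim1, Pim3 and Junb. Each of the 9 symbols matched 1 gene of the 52550 listed in the count tables, and all 9 passed the filter on low counts that left 20749 genes for testing. Messenger RNA was sequenced from 4 groups with 2 libraries each, 8 in all: control ESCs in 2i/LIF, Dax1KO ESCs in 2i/LIF, control ESCs in LIF/serum and Dax1KO ESCs in LIF/serum. All cells were labelled passage 3, grew on gelatin and received LIF at 10 ng/ml, so no group lacked the ligand. The 2i/LIF medium was N2B27 with the MEK inhibitor PD0325901 at 1 μM and the GSK3 inhibitor CHIR99021 at 3 μM, and the LIF/serum medium was DMEM with 15% fetal bovine serum. Dax1 (Nr0b1), an orphan nuclear receptor encoded on the X chromosome, was disrupted with CRISPR/Cas9 delivered by lentivirus. Knockout colonies were obtained in 2i/LIF, and a single clone served for the functional experiments; the sources used here do not state which clone was sequenced. By the paper's account, Dax1KO cells moved from 2i/LIF to LIF/serum differentiated, died in large numbers and could not be kept in passage. The part of this state in the LIF/serum results was not tested. The libraries of a group are RNA samples of the same line, so P values measure the spread between these samples, which may be technical.

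LIF binds a receptor made of LIFR and gp130, the product of Il6st, and the JAK kinases bound to gp130 then phosphorylate STAT3. Phosphorylated STAT3 enters the nucleus and activates target genes, among them Socs3, whose product binds gp130 and JAKs and dampens the signal. Mouse ESCs self-renew in serum medium only while LIF is present, whereas inhibition of MEK and GSK3 reduces this dependence. STAT factors bind DNA at palindromes of the form TTCNNNGAA.

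Total counts were 35911384 to 37286251 per library. Dax1 itself had 456 and 300 counts in control cells and 0 in both Dax1KO libraries in 2i/LIF, and 5095 and 4689 against 14 and 6 in LIF/serum. All 8 ESC markers examined were above 10 counts in every group, and their summed normalized counts lay between 204669 and 253528 in all libraries. The summed normalized counts of 7 primitive endoderm markers were 1075 in both control libraries and 1091 to 1399 in Dax1KO cells in 2i/LIF, and 4000 to 5599 in control and 12481 to 14792 in Dax1KO cells in LIF/serum. Those of 8 fibroblast markers were 2019 to 2467, 1724 to 1765, 580 to 632 and 1872 to 1988 in the same order, with Col3a1 and Dcn at 0 to 4 counts everywhere and most of the sum from Thy1. Genes on chromosome 6 were shifted in Dax1KO cells, with medians on the log2 scale of 0.443 (2i/LIF) and 0.516 (LIF/serum), against -0.0115 and 0.00655 for all genes tested. No member lies on chromosome 6.

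The members sit on 6 chromosomes of the mouse genome build GRCm38. The receptor genes are Lifr at chr15:7090614-7197489 on the plus strand, Il6st at chr13:112464070-112510086 on the plus strand, and Osmr at chr15:6813577-6874969 on the minus strand. Jak1 is at chr4:101152367-101265282 and Stat3 at chr11:100885098-100939540, both on the minus strand. Among the response genes, Socs3 lies at chr11:117966079-117970047 and Junb at chr8:84974484-84978718 on the minus strand, with Pim1 at chr17:29490753-29496112 and Pim3 at chr15:88862186-88865726 on the plus strand. No source states that strand was used in counting, so reads from overlapping genes on opposite strands cannot be told apart. Exons of Jak1 overlap Raver2 by 4 bp, those of Stat3 overlap Stat5a by 72 bp, and those of Pim1 overlap the antisense gene Gm26885 by 1173 bp. The overlap of Junb with Prdx2, 351 bp, touches only a short noncoding transcript of Junb. Counts were 955 to 3176 for Raver2, 121 to 289 for Stat5a, 229 to 528 for Gm26885 and 7992 to 10612 for Prdx2.

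The promoters of Socs3 and Junb are shown because these were the 2 members that passed the test between Dax1KO and control cells. The 250 bases upstream of the RefSeq start were searched for TTCNNNGAA, which reads the same on both strands. Only this exact form was searched, so a window without a match may still hold a looser site. All 9 members matched RefSeq promoters of GRCm38.p6, in 11 windows, and only the Socs3 window held a match, while 7.02% of all 32851 windows did. In Socs3 the match is TTCTTAGAA at chr11:117969512-117969520, 154 to 146 bases before the RefSeq start and upstream of the coding transcript in GENCODE. A match is a description of the sequence and not evidence of binding. Capitals mark it below, and the sequences run 5′ to 3′ on the minus strand, chr11:117969452-117969616 for Socs3 and chr8:84978749-84978998 for Junb. The Junb stretch is the whole window searched. For Socs3 only the 165 bases farthest from the RefSeq start are printed, up to an annotated GENCODE exon.
Socs3: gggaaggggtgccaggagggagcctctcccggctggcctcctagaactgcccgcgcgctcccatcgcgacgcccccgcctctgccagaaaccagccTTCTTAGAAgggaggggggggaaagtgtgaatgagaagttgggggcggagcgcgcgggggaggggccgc
Junb: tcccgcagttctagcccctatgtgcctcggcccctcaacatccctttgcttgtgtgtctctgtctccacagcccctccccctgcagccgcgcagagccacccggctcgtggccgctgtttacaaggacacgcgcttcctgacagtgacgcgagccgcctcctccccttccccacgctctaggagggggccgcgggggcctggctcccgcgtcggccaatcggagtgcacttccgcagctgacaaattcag

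Socs3 had the highest level per length of the 9 genes in every group except control cells in LIF/serum, where Pim3 was highest. Levels were compared between genes as CPM per kb, the count scaled to the library's total (CPM) and divided by the kilobases of exon, averaged over 2 libraries, with the SD. In control cells in 2i/LIF, Socs3 stood at 78.1 ± 3.71, Pim1 at 55.1 ± 0.549 and Pim3 at 42.3 ± 2.54 CPM per kb, and the libraries of these neighbours did not overlap. Jak1 followed at 18.3 ± 1.12, Stat3 at 13.6 ± 0.606 and Junb at 12.5 ± 1.84, of which Stat3 and Junb overlapped. The receptor subunits were lowest, with Lifr at 5.87 ± 0.475 and Il6st at 5.80 ± 0.26, which overlapped each other.

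Osmr, the subunit that pairs with gp130 to bind oncostatin M, had low counts in all groups. It had 0 and 3 counts in control cells and 6 and 19 in Dax1KO cells in 2i/LIF, and 16 and 7 against 31 and 30 in LIF/serum. Control cells in 2i/LIF were thus at or under 3 counts, the floor used here, and no fold change is given against them. The order changed with the group mainly through Pim1, Pim3 and Junb. In Dax1KO cells in 2i/LIF, Junb rose to the fourth place at 24.6 ± 2.88 CPM per kb, above Stat3 at 18.3 ± 0.589 and Jak1 at 17.5 ± 1.78, which overlapped. In control cells in LIF/serum, Pim3 at 72.9 ± 4.93 stood above Socs3 at 58.3 ± 5.8, Pim1 at 36.5 ± 1.2 and Junb at 29.9 ± 2.72, with no overlap between neighbours. In Dax1KO cells in LIF/serum, Socs3 at 92.1 ± 17.6 and Pim3 at 85.2 ± 9.64 overlapped, followed by Pim1 at 28.2 ± 2.83 and Junb at 18.4 ± 1.54. Lifr and Il6st stayed between 5.64 and 8.88 CPM per kb in all 4 groups, in the places just above Osmr.

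**Figure D1:**
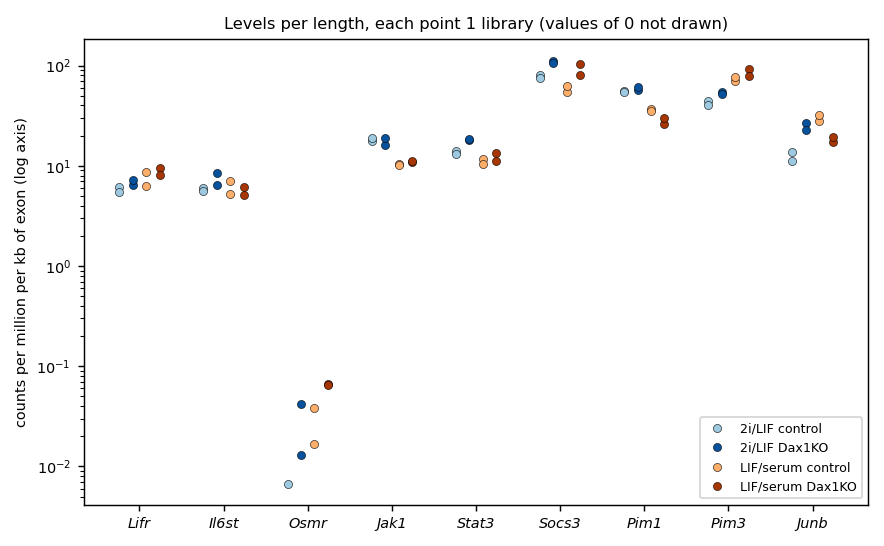
Level of each of the 9 genes in the 4 groups, in CPM per kilobase of exon on a log axis, with a point for each library and the Osmr value of 0 not drawn. Socs3, Pim1 and Pim3 lie above the other members in all groups, Lifr and Il6st lie between 5.64 and 8.88 on average, and Osmr lies far below all other members.

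In 2i/LIF, Dax1KO cells had more Junb RNA than control cells, and it was the only member that passed the test. Junb encodes a subunit of the AP-1 transcription factor and is an immediate response gene of LIF. Its normalized counts were 1167 and 947 in control cells and 2250 and 1905 in Dax1KO cells. Both Dax1KO libraries lay above both control libraries, and the mean level rose 1.96-fold (log2 fold change 0.97 ± 0.16, SE; edgeR's quasi-likelihood test, Benjamini-Hochberg adjusted p = 0.0229). Thus 1 of 9 members, 11.1%, was called, against 3.16% of all genes tested (1.51% upward and 1.65% downward). This call rested on all 4 libraries in 2i/LIF: without control replicate 1 or 2 the adjusted p was 0.0651 or 0.114 (log2 fold change 1.13 or 0.85), and without Dax1KO replicate 1 or 2 it was 0.155 or 0.0945 (0.85 or 1.09). It was also lost without a filter on low counts (0.97, adjusted p = 0.0655). In the same Dax1KO libraries, 1 of 7 primitive endoderm markers was called, Dab2 (log2 fold change 1.28, higher), as were 2 of 8 fibroblast markers, Pdgfrb (1.81, higher) and Thy1 (-0.85, lower). Of the 6 fibroblast markers tested, 5 had a log2 fold change above 0, with a median of 1.36 over the 6. Among them, Col1a2, Postn and Lum had few counts, 0 to 22 in control and 6 to 71 in Dax1KO libraries. The 8 fibroblast markers summed to 2019 to 2467 normalized counts in control and less, 1724 to 1765, in Dax1KO cells. The part of these markers in the Junb result was not tested. In bulk RNA, a change in the share of cells that express a gene and a change in RNA per cell cannot be told apart.

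Stat3, the transcription factor of the pathway, had 4902 and 4602 normalized counts in control cells and 6263 and 6555 in Dax1KO cells in 2i/LIF. Socs3, its feedback inhibitor, had 8573 and 8016 against 11919 and 11299. Neither pair of groups overlapped, but neither gene passed the test. The log2 fold change was 0.43 ± 0.12 for Stat3 (adjusted p = 0.114, the same test) and 0.49 ± 0.15 for Socs3 (adjusted p = 0.13). With DESeq2 both passed, at adjusted p = 0.0396 for Stat3 and 0.0397 for Socs3 and nearly the same log2 fold changes of 0.44 and 0.49. Pim3, which encodes a serine/threonine kinase that promotes cell survival, had 3936 and 3615 normalized counts in control cells and 4863 and 4620 in Dax1KO cells (log2 fold change 0.33 ± 0.12, adjusted p = 0.201).

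For Pim1, Jak1, Lifr and Il6st, the 95% intervals in 2i/LIF included 0. Pim1, the related kinase, had 6858 and 6762 normalized counts in control cells and 7039 and 7620 in Dax1KO cells, with a log2 fold change of 0.11 (95% interval -0.15 to 0.36). Jak1 had 4646 and 5067 against 4320 and 4987, so its groups overlapped, and its log2 fold change was -0.06 (-0.32 to 0.20). For the receptor subunits, Lifr had 2456 and 2190 against 2569 and 2836 normalized counts, and Il6st had 2439 and 2289 against 3432 and 2628. Both Dax1KO libraries were above both control libraries for each of the receptor genes, with log2 fold changes of 0.22 (-0.18 to 0.61) for Lifr and 0.36 (-0.08 to 0.79) for Il6st. These intervals leave room for a rise of over 1.2-fold, the size used for calls, in Lifr, Il6st and Pim1. Leaving Osmr aside, 7 of 8 members were higher in both Dax1KO libraries and none was lower in both. For comparison, 51.8% of all genes tested had groups that did not overlap, in either direction. The median log2 fold change over the 8 members was 0.344, against -0.0115 over all genes tested.

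**Figure D2:**
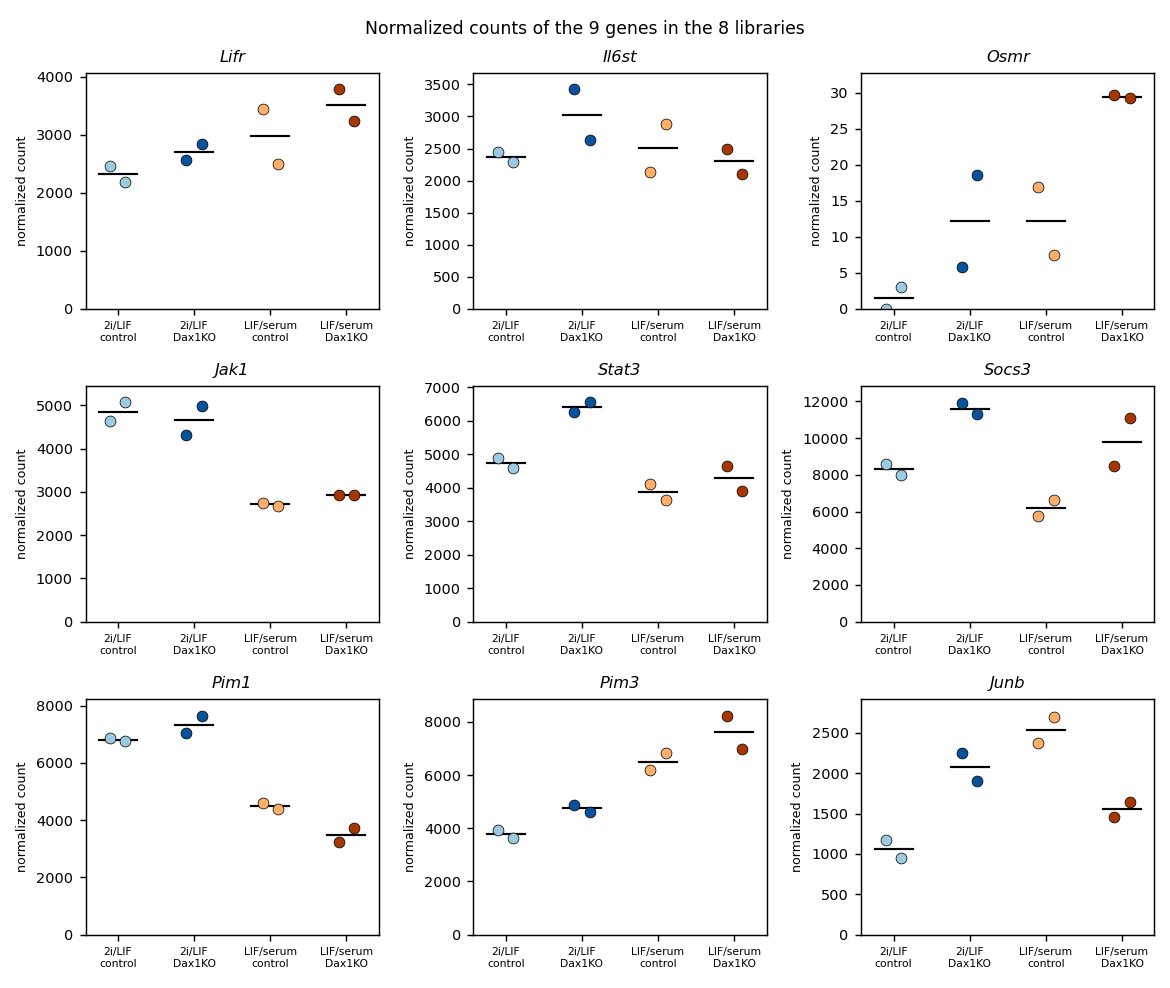
Normalized counts of the 9 genes in each of the 8 libraries, with a point for each library and a bar for the mean of a group. Junb in 2i/LIF is higher in both Dax1KO libraries (2250 and 1905) than in both control libraries (1167 and 947), and in LIF/serum it is lower in both (1463 and 1647 against 2370 and 2694).

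In LIF/serum, Dax1KO cells had more Socs3 RNA and less Junb RNA than control cells. Socs3 had 5762 and 6633 normalized counts in control cells and 8463 and 11106 in Dax1KO cells. Both Dax1KO libraries lay above both control libraries, although they differed from each other by 1.31-fold. The mean rose 1.58-fold (log2 fold change 0.66 ± 0.15; adjusted p = 0.0243, edgeR's quasi-likelihood test). Junb had 2370 and 2694 normalized counts in control cells and 1463 and 1647 in Dax1KO cells. Its mean was 1.63-fold lower (log2 fold change -0.70 ± 0.16; adjusted p = 0.0242), and the groups did not overlap. These 2 calls among 9 members, 22.2%, compare with 14.7% of all genes tested, of which 8.87% were called upward and 5.78% downward.

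Both calls in LIF/serum depended on the filter and on single libraries. Without a filter on low counts, the adjusted p was 0.0541 for Socs3 and 0.0576 for Junb, and with only the groups compared it was 0.0726 for Socs3. Without control replicate 1, Dax1KO replicate 2, or Dax1KO replicate 1 or 2 of 2i/LIF, which enter through the shared estimate of spread, the adjusted p of Socs3 was 0.0909, 0.132, 0.0532 or 0.0529. Its log2 fold change was then 0.56, 0.45, 0.66 and 0.66. Without control replicate 2, Dax1KO replicate 1 or Dax1KO replicate 2 of LIF/serum, the adjusted p of Junb was 0.0832, 0.119 or 0.0883, with log2 fold changes of -0.62, -0.62 and -0.79. In the same Dax1KO libraries of LIF/serum, 5 of 7 primitive endoderm markers were called higher, and all 7 had a log2 fold change above 0. The 7 summed to 12481 to 14792 normalized counts against 4000 to 5599 in control cells. Of the 8 fibroblast markers, 6 were tested and 3 were called higher, and the 8 summed to 1872 to 1988 against 580 to 632. Col3a1 and Dcn stayed at 0 to 3 counts, and Postn and Lum were at 0 in both genotypes. The part of these markers in the Socs3 and Junb results was not tested.

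Pim1 had 4608 and 4399 normalized counts in control cells and 3232 and 3726 in Dax1KO cells in LIF/serum. Both Dax1KO libraries were lower, but the difference missed the threshold (log2 fold change -0.37 ± 0.11, adjusted p = 0.0608), and it passed with DESeq2 (adjusted p = 0.0261). Its relative Pim3 had 6194 and 6816 against 8209 and 6994, higher in both Dax1KO libraries, with a log2 fold change of 0.22 (95% interval -0.05 to 0.50). Stat3 had 4102 and 3642 against 4655 and 3917, which overlapped, at 0.15 (-0.14 to 0.43). Jak1 had replicates that agreed closely, with 2746 and 2681 against 2930 and 2938 normalized counts, and a log2 fold change of 0.11 (-0.15 to 0.38). For the receptor subunits Lifr and Il6st, the genotypes overlapped. Lifr had 3449 and 2501 against 3791 and 3242 normalized counts (0.24, -0.15 to 0.63), and Il6st had 2129 and 2886 against 2497 and 2100 (-0.13, -0.56 to 0.31). The control libraries alone differed by 1.38-fold for Lifr and 1.36-fold for Il6st. Osmr, at 16 and 7 counts against 31 and 30, did not overlap and had a log2 fold change of 1.26 with an interval from -0.70 to 3.22. Without Osmr, 3 of 8 members were higher and 2 lower in both Dax1KO libraries, where 57.5% of all genes had groups that did not overlap. The median log2 fold change was 0.13 over these 8 members and 0.00655 over all genes tested.

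**Figure D3:**
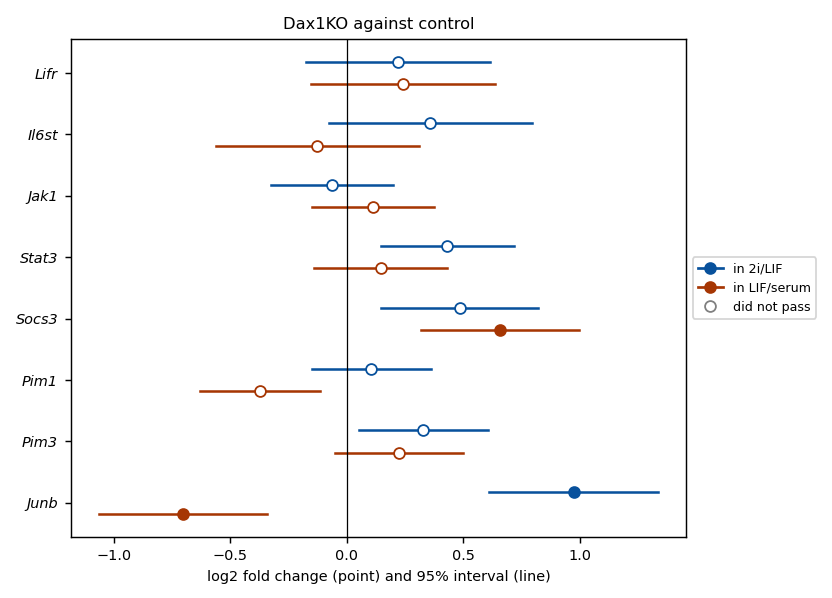
Log2 fold change of Dax1KO against control cells for the members, with 95% intervals, in 2i/LIF and in LIF/serum; open points did not pass and Osmr is left out. Junb lies at 0.97 in 2i/LIF and at -0.70 in LIF/serum, and Socs3 lies above 0 in both media and passed the test in LIF/serum (0.66).

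Whether the effect of Dax1KO differed between the media was tested as an interaction. Junb was the only member that passed, 1 of 9 against 2.87% of all genes tested (2.05% upward and 0.824% downward). Its change in LIF/serum was lower than that in 2i/LIF by a log2 difference of -1.68 ± 0.22 (adjusted p = 0.0148, edgeR's quasi-likelihood test). The 2 control groups and the 2 Dax1KO groups lay in opposite orders: control cells had 2.39-fold less Junb in 2i/LIF than in LIF/serum, which passed the test, while Dax1KO cells had 1.34-fold more, which did not (adjusted p = 0.0817, and 0.0668 to 0.362 over 15 alternatives). The interaction was no longer called without control replicate 2 of 2i/LIF (-1.56, adjusted p = 0.059), Dax1KO replicate 1 or 2 of 2i/LIF (-1.55 and -1.79, 0.0793 and 0.0582), or Dax1KO replicate 1 or 2 of LIF/serum (-1.59 and -1.76, 0.0544 and 0.0539), nor without a filter on low counts (-1.66, adjusted p = 0.0535). Under all 14 alternatives of processing and libraries, the difference kept its sign, between -1.83 and -1.55.

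For Socs3, which passed in LIF/serum and not in 2i/LIF, the difference between media was 0.17 (95% interval -0.30 to 0.65, adjusted p = 0.721), so its effect was not shown to differ. For Pim1 the difference was -0.48 (-0.84 to -0.12), with an adjusted p of 0.154. Il6st had a difference of -0.48 (-1.10 to 0.13) and Stat3 one of -0.28 (-0.69 to 0.12). Lifr, Jak1 and Pim3 lay closer to 0, at 0.02, 0.17 and -0.10, and their adjusted p values were 0.992, 0.624 and 0.812.

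The media themselves were compared within each genotype. In control cells, Jak1 and Pim1 were higher and Pim3 and Junb were lower in 2i/LIF than in LIF/serum. These 4 of 9 members, 44.4%, compare with 36.8% of all genes tested (20.3% higher and 16.5% lower in 2i/LIF). From the normalized counts given for each library above, Jak1, the kinase that starts the signal, was 1.79-fold higher in 2i/LIF (log2 fold change 0.84 ± 0.11, adjusted p = 0.00103). Pim1 was 1.51-fold higher (0.60 ± 0.11, adjusted p = 0.00441), whereas Pim3 was 1.72-fold lower (-0.78 ± 0.12, adjusted p = 0.00179). Junb was 2.39-fold lower (-1.26 ± 0.16, adjusted p = 0.000685), the largest of the 4 changes. The groups did not overlap for any of these genes, nor for 7 of the 8 members other than Osmr, against 68.6% of all genes. Stat3, at 0.30 ± 0.12 (adjusted p = 0.0974), and Socs3, at 0.42 ± 0.15 (adjusted p = 0.0548), were higher in both 2i/LIF libraries but did not pass. Lifr was at -0.36 (95% interval -0.75 to 0.04) and Il6st at -0.09 (-0.52 to 0.35). Without control replicate 2 of LIF/serum, Lifr passed (-0.60, adjusted p = 0.0261) and the estimate for Il6st changed sign to 0.13.

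In Dax1KO cells, 4 of 9 members again passed, 44.4% against 28.9% of all genes tested (15.2% higher and 13.7% lower in 2i/LIF). Jak1 was 1.59-fold higher in 2i/LIF (log2 fold change 0.67 ± 0.11, adjusted p = 0.00402), Pim1 was 2.11-fold higher (1.08 ± 0.11, adjusted p = 4e-04) and Pim3 was 1.60-fold lower (-0.68 ± 0.12, adjusted p = 0.00455). Stat3 was 1.5-fold higher (0.58 ± 0.12, adjusted p = 0.0104), with 6263 and 6555 normalized counts in 2i/LIF against 4655 and 3917 in LIF/serum. The Stat3 call was lost without Dax1KO replicate 2 of 2i/LIF (0.55, adjusted p = 0.0759) or of LIF/serum (0.46, adjusted p = 0.0722). Junb, at 0.42 ± 0.16 (adjusted p = 0.0817), did not pass. The media did not overlap for any of the 8 members other than Osmr, against 68.9% of all genes. Socs3 was at 0.25 (95% interval -0.09 to 0.58), Il6st at 0.40 (-0.04 to 0.83) and Lifr at -0.38 (-0.77 to 0.01). All 7 primitive endoderm markers were lower in 2i/LIF in both genotypes. Of the 6 fibroblast markers tested, 4 were called higher and 1 lower in 2i/LIF in control cells, and 2 higher and 1 lower in Dax1KO cells. Of the 8 ESC markers, 1 was called higher and 2 lower in control cells, and 1 higher and 4 lower in Dax1KO cells. The part of these markers in the differences between media was not tested.

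The kinase genes Pim1 and Pim3 differed in opposite directions between the media in both genotypes. The ratio of Pim1 to Pim3 per kilobase was 1.26 and 1.35 in control and 1.04 and 1.19 in Dax1KO libraries when grown in 2i/LIF. In LIF/serum it was 0.537 and 0.466 in control and 0.284 and 0.385 in Dax1KO libraries. The 4 groups did not overlap in this ratio, and all libraries in 2i/LIF lay above 1 and all in LIF/serum below it. The boundary at 1 depends on the exon lengths used, but the order of the groups does not.

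**Figure D4:**
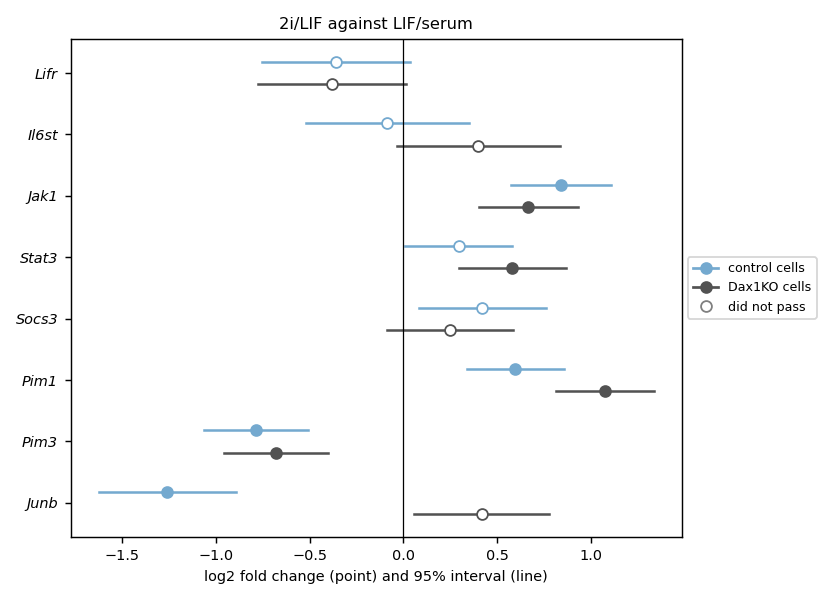
Log2 fold change of 2i/LIF against LIF/serum with 95% intervals, for control and Dax1KO cells, with open points for genes that did not pass; Osmr is left out. Jak1 and Pim1 lie above 0 and Pim3 lies below 0 in both genotypes, while Junb lies at -1.26 in control and 0.42 in Dax1KO cells.

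Of 56 other genes of the pathway, 55 were tested; Il6 did not pass the filter, with 0 to 9 counts. In 2i/LIF, 5 of the 55, 9.09% against 3.16% of all genes, were called between Dax1KO and control cells. Zfp36, which encodes an mRNA decay factor, rose by 1.43 ± 0.25 on the log2 scale (adjusted p = 0.0273), as did the adhesion molecule gene Icam1 at 0.81 ± 0.13 (adjusted p = 0.0199) and the adaptor gene Shc1 at 0.70 ± 0.11 (adjusted p = 0.0207). Ccnd1, the gene for cyclin D1, fell by 2.12 on the log2 scale (SE 0.18, adjusted p = 0.00436) and Stat4 by 1.07 (SE 0.19, adjusted p = 0.0303). None of 6 ligands, 4 receptor subunits or 13 inhibitors was called. Lif itself, the gene for the ligand, had 137 and 142 normalized counts in control and 91.4 and 88.0 in Dax1KO cells, lower in both but not past the test (adjusted p = 0.168). Leaving out any 1 of the 4 libraries in 2i/LIF reduced the 5 calls to 1.

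In LIF/serum, 12 of 55 pathway genes were called, 21.8% against 14.7% of all genes, 8 higher and 4 lower in Dax1KO cells. Of 9 kinase and STAT genes, 4 were called higher, namely Stat5b, Stat2, Jak2 and Stat5a, and Stat4 was called lower. Stat5b, next to Stat3 and Stat5a on chromosome 11, had 245 and 232 normalized counts in control and 549 and 531 in Dax1KO cells (log2 fold change 1.18 ± 0.16, adjusted p = 0.0047). Jak2 had 301 and 278 against 516 and 596 (0.94 ± 0.15, adjusted p = 0.00865). Of 4 receptor subunits, Il27ra (1.35 ± 0.32, adjusted p = 0.0301) and Il6ra (1.27 ± 0.29, adjusted p = 0.0268) rose. Among 13 inhibitors, Socs2 fell, from 4856 and 4190 to 1823 and 1662 normalized counts (-1.38 ± 0.16, adjusted p = 0.00285), and Ptpn6 rose by 0.83, though it lies on chromosome 6. Of 18 response genes, the pluripotency factor gene Klf4 rose, with 6817 and 7651 against 13747 and 11298 normalized counts (0.79 ± 0.14, adjusted p = 0.0107). Ccnd1 (-1.42 ± 0.18, adjusted p = 0.00382) and Gbx2 (-1.06 ± 0.25, adjusted p = 0.0285) fell. Without Dax1KO replicate 2 of LIF/serum, 6 genes were called in place of 12. The endoderm and fibroblast markers had the sums given above in these Dax1KO libraries, and their part here was not tested either.

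Several well-known response genes did not pass between genotypes. Tfcp2l1, a direct STAT3 target, had 24169 and 19841 normalized counts in control and 36672 and 39513 in Dax1KO cells in 2i/LIF. These groups did not overlap, but the log2 fold change of 0.79 ± 0.17 missed the threshold (adjusted p = 0.0512), and in LIF/serum it was 0.48 ± 0.17 (adjusted p = 0.101). Klf5 was at -0.09 and 0.11 in the 2 media and Myc at -0.09 and -0.68. Of the phosphatase gene Ptpn11 and the inhibitor genes Socs1 and Cish, none passed in either medium, with log2 fold changes from 0.23 to 0.64.

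**Figure D5:**
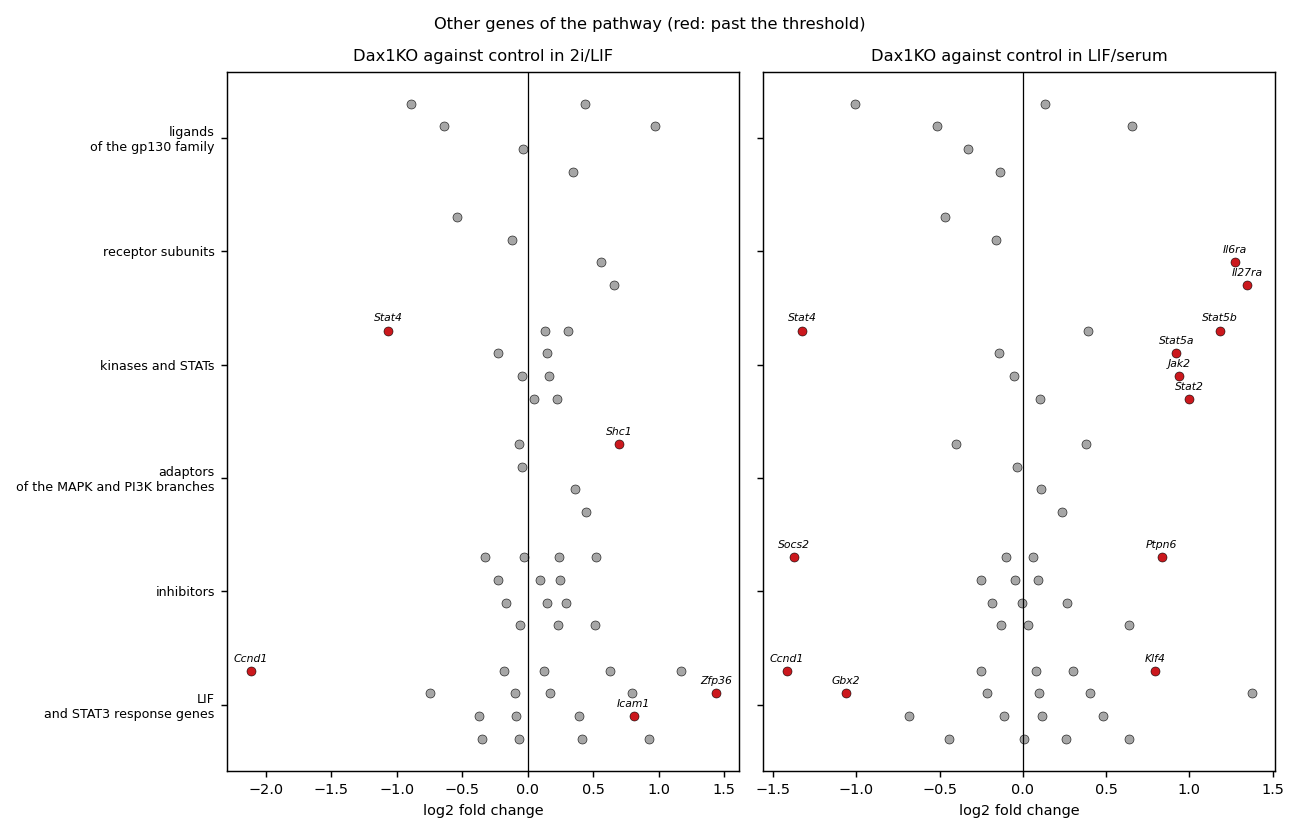
Log2 fold change of Dax1KO against control cells for the 55 other pathway genes tested, by role, in 2i/LIF and LIF/serum, with called genes in red and named. In 2i/LIF 5 genes were called, and in LIF/serum 12, of which 5 are kinases or STATs.

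Between the media, 25 of 55 pathway genes were called in control cells, 45.5% against 36.8% of all genes, and 19 in Dax1KO cells, 34.5% against 28.9%. In control cells, Pramel7 (log2 fold change 2.02), Il6ra (1.86) and Tfcp2l1 (1.45) were the called genes with the largest increase in 2i/LIF. Myc (-4.86), Gbx2 (-3.30) and Zfp36 (-2.23) had the largest decrease. Myc had 76.2 and 46.0 normalized counts in 2i/LIF and 1766 and 1783 in LIF/serum in these cells. In Dax1KO cells the largest increases were those of Tfcp2l1 (1.77), Jak3 (1.75) and Icam1 (1.56), and the largest decreases those of Myc (-4.26), Gbx2 (-2.06) and Il11ra1 (-1.21). Klf4 was higher in 2i/LIF in control cells (0.74, adjusted p = 0.00439) but not past the test in Dax1KO cells (0.07, adjusted p = 0.763), and the difference between these effects did not pass (adjusted p = 0.114). Jak2 and Socs1 were called as higher in 2i/LIF in both genotypes, at 1.43 and 0.64 for Jak2 and 1.01 and 0.89 for Socs1. Lif was called as lower in 2i/LIF in Dax1KO cells (-0.78, adjusted p = 0.0281). Without 1 of the 4 Dax1KO libraries, the 19 calls in Dax1KO cells became 11 (replicate 1 of 2i/LIF), 7 (replicate 2 of 2i/LIF), 12 (replicate 1 of LIF/serum) or 11 (replicate 2 of LIF/serum).

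The genes whose pattern over the 8 libraries was most like that of a member were sought among 15750 genes with a mean of at least 1 CPM. Likeness was the root mean square difference of log2 CPM after centring each gene on its mean, and it describes 8 libraries that share 4 groups. For Lifr, whose own SD was 0.274 on this scale, they were Mtmr1 (0.06), 2610507B11Rik (0.078), Arf3 (0.085), Mtmr4 (0.086) and Hnrnpf (0.086). For Stat3, with an SD of 0.304, they were C77080 (0.071), Nfe2l1 (0.073), Fbxo46 (0.076), Zbed4 (0.08) and Wbp1l (0.08). For Socs3, with an SD of 0.377, Tex2 (0.073), Trim47 (0.09), Tsc22d4 (0.097), Sh2b2 (0.1) and Palm (0.108) were closest. None of these genes is a member. Among the members, the closest pair was Pim1 and Jak1 at 0.199, followed by Pim3 and Lifr at 0.249, Stat3 and Jak1 at 0.253 and Stat3 and Il6st at 0.255. Stat3 and Socs3 stood next, at 0.265.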

How the data were processed

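Sequencing of mRNA covered both genotypes in both media, with 2 libraries per group. For each library the authors deposited raw counts per gene. The submitters' processing notes name HISAT2 2.0.4, DESeq2 and mm10; the paper's methods give DESeq2 as the tool for differential expression. The counting tool and annotation are not given in the sources used here. Of 52550 identifiers, 52403 were found in GENCODE M21 (GRCm38), which gave symbols, coordinates and exon lengths.

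The members, gene lists, markers and tests were chosen with earlier results of these data known. Groups and replicate numbers come from the sample titles. Genes were filtered with filterByExpr, which left 20749, scaled by TMM (factors 0.96 to 1.04) and fitted by edgeR 4.0.16 in R 4.3.3 with a mean for each group. Each contrast was put to edgeR's quasi-likelihood test, with P values adjusted over all genes by Benjamini-Hochberg. A gene was called at an adjusted P no higher than 0.05 with a change of 1.2-fold or more; for the interaction the adjusted P alone decided. The biological coefficient of variation across genes was 20.9%. To normalize, each count was divided by the TMM-scaled library size, then multiplied by the mean of these sizes. The fits share libraries: each group serves in 2 comparisons and in the interaction. Replicates of a group differed by more than sampling noise.

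The genes named were the 9 members, 12 pathway genes chosen by name (Klf4, Tfcp2l1, Klf5, Gbx2, Myc, Lif, Jak2, Ptpn11, Socs1, Socs2, Cish and 1 that is not reported here), and, in each comparison, the 3 called pathway genes with the largest increase and the 3 with the largest decrease; other called pathway genes were named after their values were seen. Total counts were 35911384 to 37286251 per library. Where neither library of a group exceeded 3 counts, a gene was treated as at the floor; this covers counting error only, and low counts piled up at 3 and 6. The edgeR step was tested on simulated data. The alternatives were DESeq2 1.42.0, RLE factors, TMM without chromosome 6, no filter, at least 10 counts in every library, only the groups compared, the replicate number as a block, each library left out in turn and the longest transcript as length. Promoter windows came from RefSeq (GRCm38.p6). A planned search of receptor proteins was not run.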

Additional observations from a re-analysis of the deposited data

Results flagged for a closer look

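The effect of Dax1KO differed between the media, by the interaction test, for 1 of 9 members and 3 of 55 other pathway genes, 5.45%, against 2.87% of all genes tested. These are the 4 genes of the member and pathway lists with an adjusted P of at most 0.05 for the difference itself.

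Junb had a log2 difference of -1.68 (LIF/serum minus 2i/LIF; adjusted p = 0.0148, edgeR's quasi-likelihood test): both Dax1KO libraries were above both controls in 2i/LIF and below both in LIF/serum. Zfp36, like Junb an immediate response gene, had a difference of -1.68 (adjusted p = 0.045). Its normalized counts were 222 and 297 in control and 599 and 802 in Dax1KO cells in 2i/LIF, and 1160 and 1272 against 830 and 1215 in LIF/serum, where the groups overlapped. Socs2, an inhibitor of cytokine signalling, had a difference of -1.15 (adjusted p = 0.0407), with 3494 and 2851 against 2434 and 2981 normalized counts in 2i/LIF and 4856 and 4190 against 1823 and 1662 in LIF/serum. Stat5b had a difference of 1.23 (adjusted p = 0.0342), with 524 and 595 against 523 and 562 in 2i/LIF and 245 and 232 against 549 and 531 in LIF/serum. In Stat5b the control cells in LIF/serum stood apart, and the other 3 groups lay between 523 and 595. None of the 3 pathway calls was kept when any 1 of the 8 libraries was left out. With DESeq2, 9 pathway genes passed the interaction test in place of 3, and 1510 of all genes in place of 596.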

How the results depend on the processing

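Over 45 member results, 657 values were computed under 15 alternatives: 616 kept direction and side of the threshold, 23 fell below it, 8 passed it and 10 changed sign. The sign changes concerned estimates that had not passed the test, and all arose with a library left out. Leaving out 1 library at a time gave -0.169 to 0.038 for Jak1 and Dax1KO in 2i/LIF (above 0 without control replicate 2 or Dax1KO replicate 1 of 2i/LIF). It gave -0.328 to 0.1 for Il6st and Dax1KO in LIF/serum and -0.287 to 0.125 for Il6st between media in control cells (above 0 without control replicate 2 of LIF/serum). In the interaction it gave -0.201 to 0.274 for Lifr (below 0 without control replicate 1 or Dax1KO replicate 1 of 2i/LIF, or control replicate 2 or Dax1KO replicate 1 of LIF/serum). There it also gave -0.033 to 0.359 for Socs3 and -0.222 to 0.01 for Pim3, with the sign change without Dax1KO replicate 2 of LIF/serum. The members called in 2i/LIF numbered 1, against 3 with DESeq2, 0 without a filter on low counts and 0 to 1 with a library left out. In LIF/serum they numbered 2, against 3 with DESeq2 and 3 with at least 10 counts in every library (Pim1 added in both), 0 without a filter, 1 with only the groups compared and 0 to 2 with a library left out. The interaction call became 0 without a filter and 0 to 1 with a library left out. Between media, 4 to 5 members were called in control and 3 to 4 in Dax1KO cells with a library left out, and DESeq2 called 5 in control cells (Socs3 added). Without a filter more genes were tested, and with a library left out fewer samples entered the fit; beyond this the cause was not tested. Over all genes, calls in 2i/LIF were 656, against 1455 with DESeq2 and 121 without a filter. Those in LIF/serum were 3041, against 1842 without a filter and 1743 with only the groups compared, and interaction calls were 596, against 1510 with DESeq2 and 119 without a filter. With the replicate number as a block, 1, 2, 1, 4 and 4 members were called, as without it. Same-numbered libraries correlated at 0.08 in 2i/LIF and 0.108 in LIF/serum, and with 2 numbers per group these do not pair the samples. The longest transcript as length moved 2 genes, Lifr and Il6st, in the order of levels. With 2 libraries per group, small changes could be missed, and at 0 to 31 counts Osmr could not be resolved.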

Other observations

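Replicate libraries of the members agreed within 1.38-fold in every group, Osmr aside, whereas some pathway genes varied far more. Of 51 pathway genes with a mean of at least 100 normalized counts in a group, 7 differed by more than 2-fold between the replicates of at least 1 group: Il27ra, Grb2, Cish, Socs6, Cebpb, Ier3 and Bcl2l1, of which Cebpb only just did so, with 117 and 234 normalized counts in control cells in LIF/serum. These were picked after their values were seen. Ier3, an immediate response gene, had 464 and 2055 normalized counts in Dax1KO cells and 243 and 730 in control cells in LIF/serum, against 904 and 1025 in Dax1KO and 383 and 474 in control cells in 2i/LIF. Grb2, an adaptor of the MAPK branch, had 3270 and 3047 in control and 5672 and 2940 in Dax1KO cells in 2i/LIF, and 4462 and 2131 against 2012 and 4420 in LIF/serum. Bcl2l1, which encodes a survival factor, had 1815 and 787 in control and 1875 and 877 in Dax1KO cells in LIF/serum. Socs6 had 666 and 1694 in control cells in 2i/LIF and 553 and 1357 in Dax1KO cells in LIF/serum. Il27ra, called in LIF/serum, differed by 2.02-fold between the control replicates in 2i/LIF.

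Among the other pathway genes, 39 matched RefSeq promoters in 55 windows, and 3 of these windows, those of Gab1, Icam1 and Zfp36, held TTCNNNGAA, while 7.02% of all windows did.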
